A study of Homo sapiens with 4 samples.

Results

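The 58 genes described here lie along the long arm of human chromosome 15, from UBE3A close to the centromere to MEF2A close to the end of the arm, and are 58 of the 61860 gene identifiers counted. They were picked by symbol from the stretch of that arm on which most genes gave fewer reads in the edited line than in WT. The line difference of these same libraries therefore chose them. Its values are given below as a description, with no test, and support nothing by themselves. All 58 matched the files by symbol and by Ensembl identifier, all 58 passed the filter on low counts, and they make up 58 of 599 protein-coding genes placed on chromosome 15.

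The cells were NK-92, a line of human natural killer (NK) cells that depends on interleukin 2 (IL-2) for growth. In the line named ΔOGT-ISS, CRISPR-Cas9 had deleted an intronic splicing silencer (ISS) of OGT, the gene of the enzyme that puts the sugar O-GlcNAc on intracellular proteins. The WT line is the unedited NK-92. Each line gave 1 total RNA library from cells that received IL-2 24 h before extraction and 1 from cells that received it 48 h before, 4 libraries in all, and the growth medium of all 4 also held IL-2 and fetal and horse serum. The labels describe 1 edited line and do not say whether it is 1 clone, so a difference between the lines cannot be told apart from a difference between clones. The library titles name IL-2 for the 24 h libraries alone, while the labels used here give it to all 4.

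The libraries held 28576566 counts (ΔOGT-ISS, 24 h), 24809269 (WT, 24 h), 11305599 (ΔOGT-ISS, 48 h) and 10889986 (WT, 48 h), so ratios at 24 h carry the smaller counting error. OGT itself had 384 and 399 CPM (reads scaled to a fixed library total) in ΔOGT-ISS at 24 and 48 h, against 449 and 446 CPM in WT (log2 difference -0.19, edgeR adjusted p = 0.862), and total reads of the gene do not show whether the silencer is gone. All 10 NK marker genes looked at were counted, with summed levels at 24 and 48 h of 3038 and 2740 CPM in ΔOGT-ISS and 4600.2 and 2913 CPM in WT. Of the markers of other cells, CD3E, TRAC, PAX5 and PDGFRB were counted at 19.9 CPM or more in every library, while CD3D, CD4, CD8A, MS4A1, CD14, LYZ, HBA1 and HBB reached at most 0.613 CPM in any library. Summed levels at 24 and 48 h were 342 and 212 CPM in ΔOGT-ISS and 333 and 246 CPM in WT for 7 T cell markers, and 494 and 234 CPM in ΔOGT-ISS and 621 and 330.2 CPM in WT for 4 fibroblast markers. The 6 myeloid markers summed to 47.4 and 611 CPM in ΔOGT-ISS at 24 and 48 h, against 315 and 827 CPM in WT, nearly all of it S100A9. The part of S100A9-expressing cells in the differences below was not tested. In bulk RNA, fewer cells of a type and less RNA per cell cannot be told apart.

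As background, genes on 1 chromosome arm share their DNA copy number, and when copies of an arm are lost or gained the RNA of its expressed genes usually moves together, roughly in proportion to the copies. Single genes can still depart from such a common shift. The arm holds ubiquitin ligases such as UBE3A and HERC2, signalling genes such as MAP2K1, CSK and SMAD3, the protease FURIN, the cytokine IL16 and DNA repair genes such as BLM and FANCI. In NK cells, MAP2K1 (the kinase MEK1) and RASGRP1 act downstream of activating receptors, and CSK restrains the kinases of the SRC family.

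The 58 genes were lower in ΔOGT-ISS by about the same proportion at both IL-2 times. Their median ratio of ΔOGT-ISS to WT was 0.664 at 24 h and 0.669 at 48 h, which is 66.4% and 66.9% of the WT level. On the log2 scale, with a prior count of 2, the medians were -0.59 and -0.58. Levels are CPM after TMM normalization, which scales each library to the bulk of its genes, and each ratio at 1 time rests on 1 library per line. Of the 58 genes, 53 (91.4%) were lower in ΔOGT-ISS at both times, against 26.9% of all 17492 genes tested. In 36 (62.1%) both ΔOGT-ISS libraries lay below both WT libraries, against 10.1% of all genes tested. These counts follow from the way the genes were picked.

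**Figure D1:**
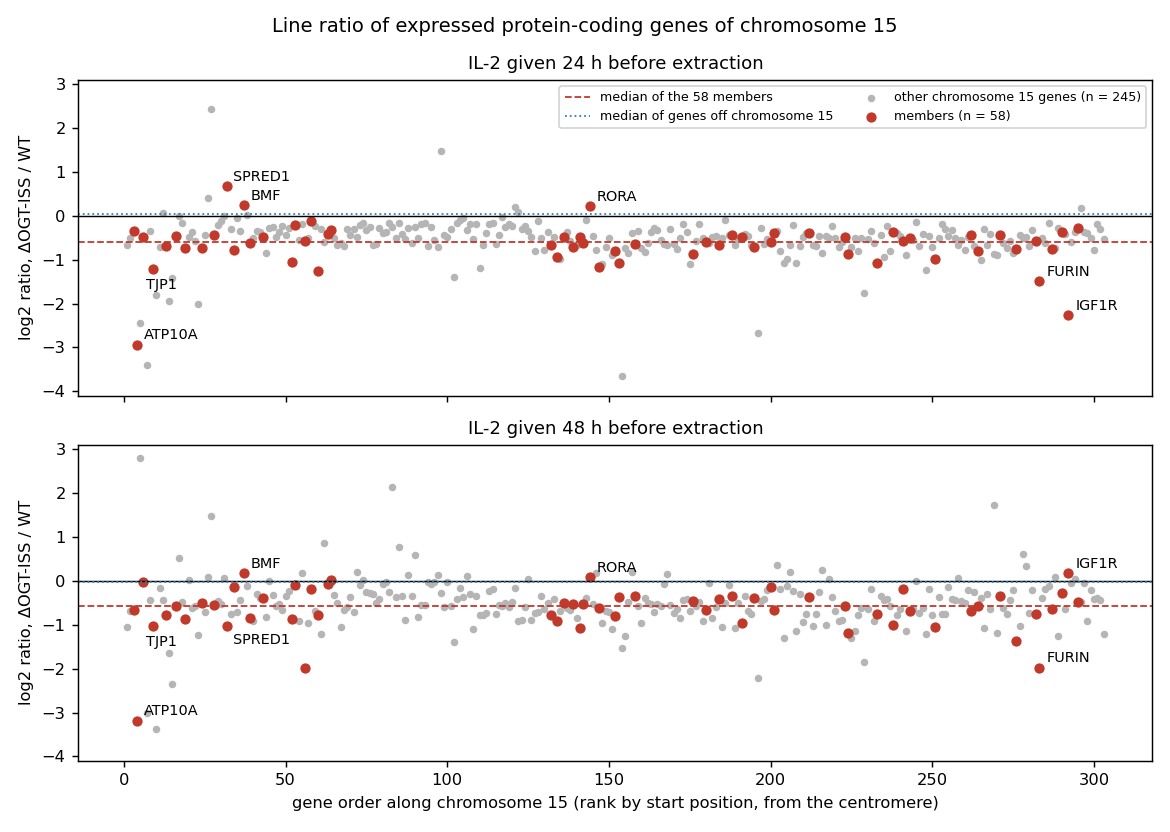
Log2 ratio of ΔOGT-ISS to WT (y axis) for protein-coding genes of chromosome 15 in their order along the chromosome (x axis, rank), at 24 h above and 48 h below. Red points are the 58 genes and grey points the other 245 whose mean was 5 CPM or more. The dashed line is the median of the 58 (-0.59 and -0.58), and the dotted line that of genes off chromosome 15 lies at 0.03 and -0.02.

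Other genes of chromosome 15 were lower too, which is again a description, since lower reads along the arm led to its choice. The plot of ratios in gene order shows the other 245 protein-coding genes of chromosome 15 whose mean was 5 CPM or more in the same band, at a median log2 ratio of -0.48 at 24 h and -0.50 at 48 h. Over both times the median was -0.60 for the 58 and -0.46 for the other 245, against 0.01 for 8784 such genes on other chromosomes. The 58 carry no such cut on level, and for the 54 of them at 5 CPM or more the median was -0.58. Chromosome 15 had the lowest median of 24 chromosomes compared, the mitochondrial one included, at -0.49 over 299 genes. Chromosome 7 came next at -0.25. In windows of 10 Mb along chromosome 15 the median ran between -0.36, in the window from 40 to 50 Mb with 74 genes, and -0.59, in the window from 20 to 30 Mb with 9 genes. As plain arithmetic, RNA in strict proportion to DNA copies would give a ratio of 0.50 with 1 copy in place of 2, 0.667 with 2 in place of 3 and 0.75 with 3 in place of 4. Copy number was not measured in these files, and its part in the shift was not tested.

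Within the 58 genes the shift was about as even as the ratios of genes elsewhere. The interquartile range of their mean log2 ratio was 0.39, against 0.39 for the other chromosome 15 genes and 0.34 for genes on other chromosomes. In all, 36 of the 58 (62.1%) lay within 0.25 log2 units of their own median, against 65.3% of genes on other chromosomes around theirs. The SD of the 58 was 0.46, against 0.43 on other chromosomes. It was 0.34 without ATP10A, but no extreme gene was left out of the other set to match. The 58 carry no cut on level, while the other sets hold only genes with a mean of 5 CPM or more. Over the 54 members at that cut the interquartile range was 0.35 and the SD 0.47, and 64.8% lay within 0.25 log2 units of their median. Counting alone gives a median standard error of 0.04 at 24 h and 0.06 at 48 h, which is well under this spread. Genes are not independent replicates, and none of these spreads was tested.

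**Figure D2:**
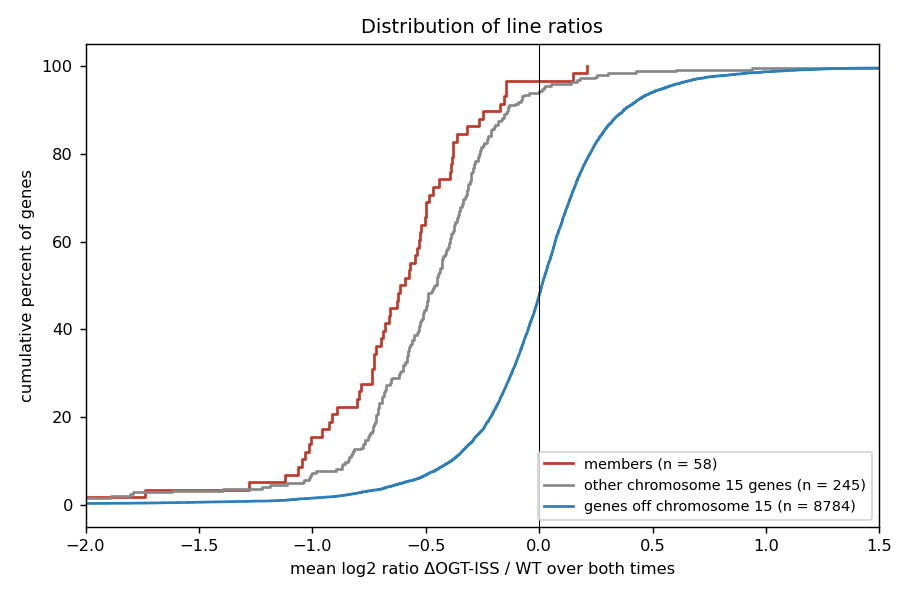
Cumulative percent of genes (y axis) by mean log2 ratio of ΔOGT-ISS to WT over both times (x axis). The red curve (the 58 genes) and the grey curve (the other 245 of chromosome 15) lie left of the blue curve (8784 genes on other chromosomes). Their medians are -0.60, -0.46 and 0.01. The grey and blue curves hold only genes with a mean of 5 CPM or more, and the red curve all 58.

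The cumulative plot shows 3 curves of similar slope, the chromosome 15 curves moved left. A gene's place within the 58 repeated only in part between the times: Pearson's r between the log2 ratios of the 2 times was 0.50 (Spearman 0.40, 58 genes), and it was 0.22 over the 57 genes other than ATP10A. The same r was 0.43 over the 8784 genes on other chromosomes. No extreme gene was left out of these 8784, so their value stands beside the 0.50 and not beside the 0.22. They all had a mean of 5 CPM or more, a cut not applied to the 58 here. The pairs of libraries at the 2 times share no library. A gene's departure from the median showed little steady rise or fall with its position along the arm (Spearman -0.09). The same held for the GC content of its longest transcript (-0.15) and its transcript length (0.08). With level the departure rose weakly (0.25), the genes of lower level tending to lie lower. A rank correlation does not see a local change, such as the milder median of -0.36 in the window from 40 to 50 Mb. In that window start BMF, INO80, RTF1, EHD4 and VPS39, above the median of the 58 at both times, and VPS18, below it at both.

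To list the genes that departed from the common shift beyond counting error, the exact 95% interval of each ratio was set against the median ratio of the 58 at the same time. The interval lay on the same side of the median at both times for 23 genes, 12 below it and 11 above it. A further 11 genes lay on opposite sides at the 2 times. At 24 h alone 21 lay below and 24 above, and at 48 h alone 22 below and 20 above. Part of the 23 would therefore share a side even if the sides at the 2 times were unrelated. The same count was not made for other genes, so the 23 has no background. These intervals cover counting error only and say nothing of how far repeat cultures would differ. The edgeR test between the lines, with an adjusted p under 0.05 over all genes, called 4 of the 58 lower (6.90%), namely ATP10A, FURIN, TJP1 and IL16, against 0.314% of all genes tested, and 42 of the 58 had an unadjusted p under 0.05. Nothing is read from that count, since the same contrast chose the genes.

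**Figure D3:**
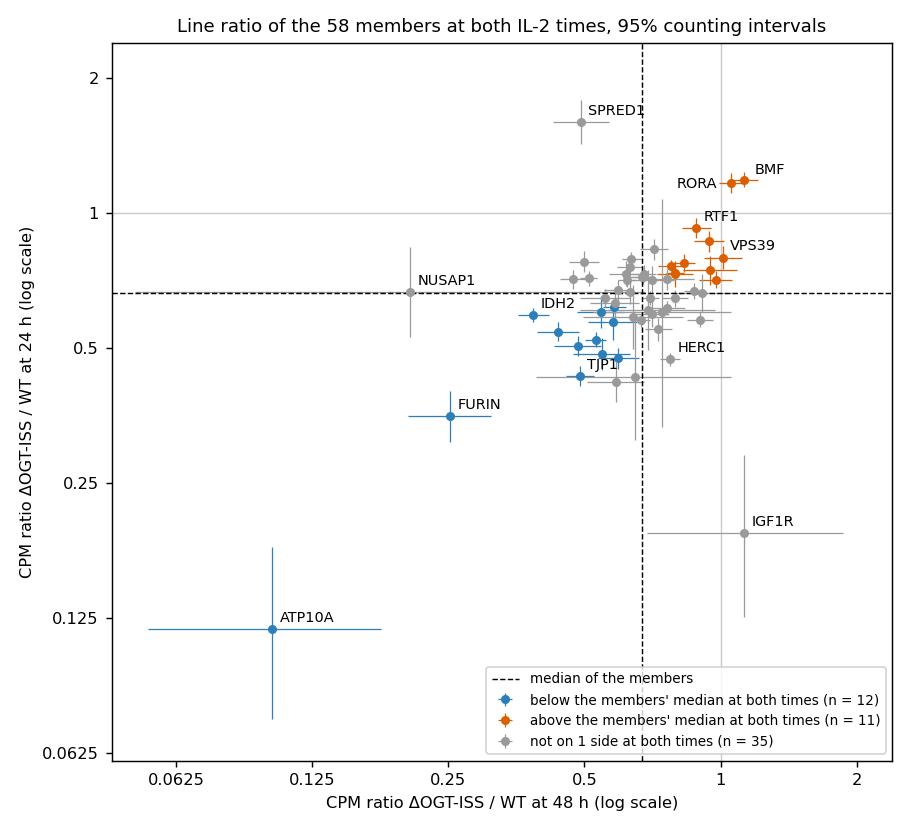
Ratio of ΔOGT-ISS to WT CPM at 24 h (y axis) against 48 h (x axis), both on log scales, for the 58 genes, with 95% counting intervals. Dashed lines mark the median ratios, 0.664 and 0.669. Blue genes (12) lay below the median at both times, orange genes (11) above it at both, and grey genes (35) on no one side at both.

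Farthest below the median was ATP10A, a phospholipid flippase gene of the imprinted region (chromosome 15, 25677273 to 25865172, minus strand, GRCh38). It had 0.862 and 1.23 CPM in ΔOGT-ISS at 24 and 48 h, against 7.31 and 12 CPM in WT. The groups did not overlap, and the ratios were 0.118 (95% counting interval 0.0743 to 0.180) and 0.102 (0.0543 to 0.178), far under those of the other 57 genes on average over the times.

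FURIN, the proprotein convertase that cleaves precursors such as that of TGF-beta (90868592 to 90883458), came next. Its level was 11 and 10.3 CPM in ΔOGT-ISS against 31.2 and 41.0 CPM in WT, with ratios of 0.352 (0.308 to 0.402) and 0.252 (0.204 to 0.310). TJP1, which encodes the tight junction scaffold ZO-1 (29699367 to 29968865), had 80.6 and 102 CPM in ΔOGT-ISS and 186 and 209 CPM in WT. Its ratios of 0.433 (0.412 to 0.456) and 0.488 (0.454 to 0.524) lay under 0.5 at both times, and for both genes the lines did not overlap.

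The other 5 of the 8 farthest below were less extreme. IDH2, the mitochondrial isocitrate dehydrogenase that makes NADPH, had 173 and 75.6 CPM in ΔOGT-ISS and 291 and 196 CPM in WT (ratios 0.593 and 0.386). PTPN9, a tyrosine phosphatase, had 91.3 and 46.4 CPM in ΔOGT-ISS and 168 and 106 CPM in WT (0.544 and 0.437). In both, each line lay higher at 24 h and the ΔOGT-ISS libraries stayed below both WT libraries. IL16, a cytokine that binds CD4, had 78.9 and 37.2 CPM in ΔOGT-ISS and 156 and 76.9 CPM in WT (0.505 and 0.483), and its libraries overlapped because the ΔOGT-ISS level at 24 h passed that of WT at 48 h. VPS18, a subunit of the CORVET and HOPS tethering complexes, had 30.7 and 26.2 CPM in ΔOGT-ISS and 63.2 and 48.0 CPM in WT (0.485 and 0.546). ADAM10, a sheddase of membrane proteins, had 136 and 194 CPM in ΔOGT-ISS and 261 and 365 CPM in WT, and its ratios of 0.522 and 0.530 were nearly the same at the 2 times. The remaining genes below the median at both times were PSTPIP1, EMC7, USP3 and KLF13, whose ratios ran from 0.474 to 0.618.

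On the other side, BMF and RORA were the only members higher in ΔOGT-ISS at both times. BMF, a BH3-only gene of the BCL2 family that promotes apoptosis (40087890 to 40108892), had 217 and 153 CPM in ΔOGT-ISS and 183 and 136 CPM in WT. Its ratios were 1.19 (1.14 to 1.23) and 1.13 (1.05 to 1.21). RORA, a nuclear receptor of lymphoid and circadian gene control (60488284 to 61229319), had 112 and 187 CPM in ΔOGT-ISS and 96.0 and 177 CPM in WT, with ratios of 1.17 (1.11 to 1.23) and 1.06 (0.991 to 1.12). The lines overlapped for both genes, and the excess over WT was small beside the difference between the times.

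Among the other 6 of the 8 farthest above, 3 act on chromatin. RTF1, of the PAF1 elongation complex, had 104 and 122 CPM in ΔOGT-ISS and 113 and 138 CPM in WT (ratios 0.925 and 0.883). INO80, the ATPase of a chromatin remodeller, had 97.5 and 119 CPM in ΔOGT-ISS and 113 and 127 CPM in WT (0.865 and 0.941). CHD2, another remodeller, had 129 and 190.4 CPM in ΔOGT-ISS and 167 and 229.6 CPM in WT (0.774 and 0.829). All 3 stayed under the WT level at each time, by less than the typical gene of the set. VPS39, a partner of VPS18 in the HOPS complex, had 78.6 and 80.0 CPM in ΔOGT-ISS and 98.8 and 79.0 CPM in WT (0.796 and 1.01). EHD4, an endocytic recycling ATPase, had 46.2 and 37.9 CPM in ΔOGT-ISS and 61.9 and 40.0 CPM in WT (0.746 and 0.948). HERC2, a giant ubiquitin ligase, had 122 and 101 CPM in ΔOGT-ISS and 172 and 104 CPM in WT (0.710 and 0.976). These 3 were near the WT level at 48 h and clearly below it at 24 h. CSK, FANCI and PIAS1 completed the 11, with ratios from 0.732 to 0.793.

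**Figure D4:**
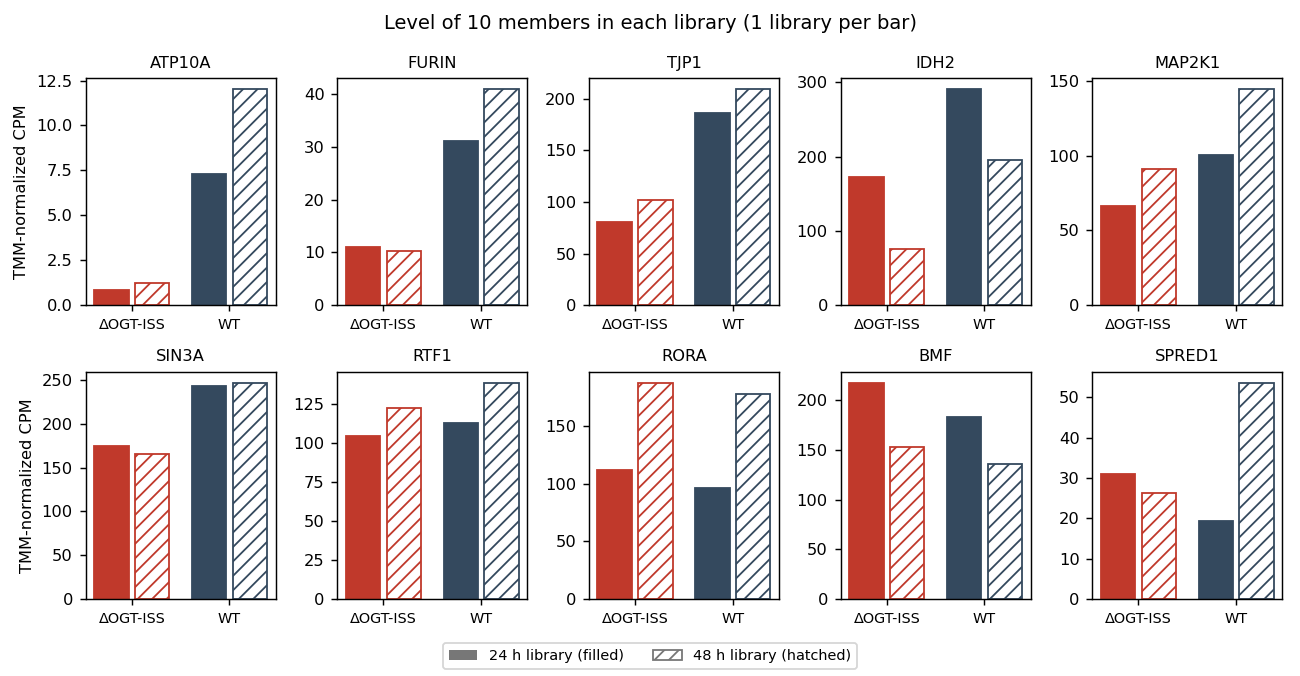
TMM-normalized CPM (y axes, from 0, scaled per gene) of 10 of the 58 genes in each library, ΔOGT-ISS in red left of WT in dark blue. Filled bars are the 24 h libraries and hatched bars the 48 h libraries, 1 library per bar. ATP10A, FURIN, TJP1 and IDH2 lay below the common shift, MAP2K1 and SIN3A on it, and RTF1, RORA and BMF above it, while SPRED1 changed sign between the times.

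The bars by library show that for MAP2K1, one of the genes nearest the median, the level was 66.6 and 91.0 CPM in ΔOGT-ISS and 100.1 and 144 CPM in WT, ratios of 0.665 and 0.630. SIN3A, the scaffold of a histone deacetylase complex, had 175 and 165 CPM in ΔOGT-ISS and 243 and 247 CPM in WT, ratios of 0.720 and 0.670. Neither gene's lines overlapped.

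The promoters of the 3 genes farthest below the shift and of the 2 above the WT level are shown to let their base composition be compared, since members that share a shift need not share a promoter type. Each is 300 bases, 250 before and 50 after the start that RefSeq lists (GRCh38.p14), written 5′ to 3′ on the gene's strand, with every CG in capitals. For ATP10A and RORA the listed start lies inside the gene as GENCODE 29 places it, and FURIN has further starts.
ATP10A: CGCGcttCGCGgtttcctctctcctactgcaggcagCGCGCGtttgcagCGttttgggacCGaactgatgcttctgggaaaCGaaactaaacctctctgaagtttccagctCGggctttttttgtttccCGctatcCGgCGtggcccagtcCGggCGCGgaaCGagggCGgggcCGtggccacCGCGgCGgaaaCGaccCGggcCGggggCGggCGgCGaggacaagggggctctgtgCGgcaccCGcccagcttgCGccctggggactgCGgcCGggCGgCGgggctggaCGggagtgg
FURIN: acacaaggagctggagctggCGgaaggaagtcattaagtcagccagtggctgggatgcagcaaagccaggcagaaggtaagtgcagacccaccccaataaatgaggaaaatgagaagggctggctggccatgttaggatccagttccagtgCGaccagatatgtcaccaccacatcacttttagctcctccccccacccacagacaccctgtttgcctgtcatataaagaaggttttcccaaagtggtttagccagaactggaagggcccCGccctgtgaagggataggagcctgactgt
TJP1: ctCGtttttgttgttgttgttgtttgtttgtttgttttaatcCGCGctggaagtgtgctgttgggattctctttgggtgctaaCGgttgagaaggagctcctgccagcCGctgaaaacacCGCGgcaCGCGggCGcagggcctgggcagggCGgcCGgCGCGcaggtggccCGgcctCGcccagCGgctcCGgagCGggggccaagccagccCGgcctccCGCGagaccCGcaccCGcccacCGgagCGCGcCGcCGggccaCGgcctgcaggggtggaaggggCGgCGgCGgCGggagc
BMF: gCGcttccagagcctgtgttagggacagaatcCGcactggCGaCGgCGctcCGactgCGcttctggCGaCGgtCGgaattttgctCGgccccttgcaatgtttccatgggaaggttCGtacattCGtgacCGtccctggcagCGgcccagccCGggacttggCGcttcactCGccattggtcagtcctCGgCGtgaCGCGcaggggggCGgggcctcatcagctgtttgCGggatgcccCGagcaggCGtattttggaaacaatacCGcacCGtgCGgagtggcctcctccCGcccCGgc
RORA: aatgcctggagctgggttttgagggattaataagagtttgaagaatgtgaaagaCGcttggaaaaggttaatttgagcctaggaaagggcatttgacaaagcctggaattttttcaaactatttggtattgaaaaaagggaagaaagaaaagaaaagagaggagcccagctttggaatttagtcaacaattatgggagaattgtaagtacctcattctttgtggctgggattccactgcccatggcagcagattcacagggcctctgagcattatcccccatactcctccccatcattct
They lie at chr15:25863278-25863577 (ATP10A, minus strand), chr15:90868338-90868637 (FURIN, plus strand), chr15:29969000-29969299 (TJP1, minus strand), chr15:40108830-40109129 (BMF, minus strand) and chr15:60627481-60627780 (RORA, minus strand).

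Both kinds of promoter occur on both sides of the shift. ATP10A, TJP1 and BMF had 37, 34 and 31 CG, while FURIN had 3 and RORA 1. Of the 58 genes, 54 matched an entry, with a median of 30 CG (range 1 to 55) against 13 over all 27305 promoters in the table. Searched on both strands, the GC box GGGCGG was found in 40 of the 54 (74.1%) against 44.5% of all promoters, CCAAT in 42.6% against 35.7%, TATAAA in 7.41% against 12% and the E-box CACGTG in 9.26% against 7.41%. None of these 4 motifs contains another. The genes' departure from the median had next to no relation to their CG count (Spearman -0.09 over 54 genes). The 58 are mostly well expressed genes, with 46 above the median level of tested genes in every library by FPKM, which is a level per transcript length, so the table as a whole is no matched comparison.

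By role, the 7 groups into which the 58 genes were sorted all had negative medians at both times. The genes named above are not repeated in full here.

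The 8 genes of ubiquitin, SUMO and the proteasome were all lower in ΔOGT-ISS at both times, with a median log2 ratio of -0.50 over both. UBE3A, the E3 ligase lost in Angelman syndrome, had 213 and 264 CPM in ΔOGT-ISS and 270.0 and 415 CPM in WT. HERC1, another giant HERC ligase, was lower by more at 24 h than at 48 h, with 208 and 234 CPM in ΔOGT-ISS and 440.3 and 303 CPM in WT (ratios 0.472 and 0.773). The E3 ligases RNF111 and ARIH1, the deubiquitinase USP3, the SUMO ligase PIAS1 and the proteasome subunit PSMA4 had ratios between 0.573 and 0.875.

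Of 13 genes of membranes, traffic and the cytoskeleton, 12 were lower at both times (median -0.62), and VPS39 was not. Besides ATP10A and TJP1, they included ANXA2, a calcium-dependent membrane-binding protein with the highest level per length of the set at 48 h. It had 199.7 and 327 CPM in ΔOGT-ISS and 309 and 468 CPM in WT. MYO1E, TPM1, PPIB (a cyclophilin of the endoplasmic reticulum), DENND4A, HEXA (a lysosomal hexosaminidase), SEC11A (the catalytic subunit of signal peptidase) and EMC7 had ratios from 0.432 to 0.911. TPM1 and MYO1E were under 10 CPM in every library, and the interval of TPM1 at 48 h, 0.391 to 1.05, reached past 1.

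Of 13 genes of chromatin and transcription, 12 were lower at both times (median -0.52), RORA being the exception, and 4 lay above the common shift at both times against 1 below. MGA, which dimerizes with MAX, was among the lower ones, with 19.6 and 28.0 CPM in ΔOGT-ISS and 46.6 and 47.7 CPM in WT (0.420 and 0.586). KLF13, BAHD1, TCF12, ANP32A, TLE3, MORF4L1 and MEF2A had ratios between 0.511 and 0.830.

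All 7 genes of genome maintenance, cell division and RNA were lower at both times (median -0.62). FANCI, of the Fanconi anaemia pathway, had 308 and 336 CPM in ΔOGT-ISS and 418 and 423 CPM in WT, and BLM, the Bloom syndrome helicase, had 84.7 and 115 CPM in ΔOGT-ISS and 126 and 194 CPM in WT. For both genes the lines did not overlap. NOP10, of the box H/ACA and telomerase particles, AQR, a spliceosomal helicase, ARHGAP11A and PRC1, a bundler of the spindle midzone, had ratios from 0.587 to 0.733. NUSAP1, a spindle protein, was counted at 0.351 CPM in ΔOGT-ISS at 48 h. Most exonic bases of NUSAP1 (62.2%) and PRC1 (58.4%) overlap another gene, so their counts are uncertain. Over the 58 genes the median overlap was 1.87%. HERC2 and ARHGAP11A have near-identical copies on the same chromosome and ANXA2 and MORF4L1 have processed pseudogenes. How reads that match several places were counted is not given in the sources used here, so these 4 are uncertain too.

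Of 10 signalling genes, 8 were lower at both times (median -0.66), and SPRED1 and IGF1R changed direction. RASGRP1, which loads RAS with GTP, had 157 and 158 CPM in ΔOGT-ISS and 271 and 175 CPM in WT. AKAP13 had ratios of 0.577 and 0.668, PLCB2 of 0.646 and 0.555, and CSK of 0.763 and 0.776. PSTPIP1, an adaptor of the actin cytoskeleton, had 75.8 and 54.2 CPM in ΔOGT-ISS and 159.8 and 91.2 CPM in WT, and its lines did not overlap. Of 5 genes of proteases, cytokine and cell death, 4 were lower at both times (median -0.93) and BMF was higher. BNIP2 had 101 and 134 CPM in ΔOGT-ISS and 142 and 285 CPM in WT. Both mitochondrial genes were lower, IDH3A, a subunit of the NAD-dependent isocitrate dehydrogenase, with 89.0 and 85.4 CPM in ΔOGT-ISS and 114 and 171 CPM in WT.

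The ratio differed most between the times in IGF1R, SPRED1, NUSAP1 and HERC1, a difference that rests on 1 library per line and time and was not tested. SPRED1, an inhibitor of RAS signalling, had 31.0 CPM in ΔOGT-ISS against 19.4 in WT at 24 h, a ratio of 1.60 (1.43 to 1.79), and 26.3 CPM in ΔOGT-ISS against 53.6 in WT at 48 h, a ratio of 0.491 (0.425 to 0.566). It was thus higher in ΔOGT-ISS at 24 h and lower at 48 h, with the WT level moving more than the ΔOGT-ISS level. IGF1R, the insulin-like growth factor 1 receptor, had 1.03 CPM in ΔOGT-ISS against 5.36 in WT at 24 h, a ratio of 0.193 (0.125 to 0.289), and 3.42 CPM in ΔOGT-ISS against 3.03 in WT at 48 h, where the interval of 0.689 to 1.86 holds 1. NUSAP1 had 4.69 CPM in ΔOGT-ISS against 7.03 in WT at 24 h and 0.351 CPM in ΔOGT-ISS against 1.70 in WT at 48 h, where its ratio of 0.206 has an interval of 0.0507 to 0.625. Both are low-count genes, while SPRED1 and HERC1 are not.

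The imprinted stretch of 15q11 holds genes read mainly from 1 parental copy, some from the paternal one (SNRPN, SNURF, NDN, MAGEL2, MKRN3) and, in brain, UBE3A from the maternal one. SNRPN, which encodes a small nuclear ribonucleoprotein, had 1.48 and 1.49 CPM in ΔOGT-ISS and 3.82 and 4.26 CPM in WT, ratios of 0.388 (0.264 to 0.563) and 0.350 (0.188 to 0.623), with a log2 difference of -1.43 (SE 0.50, edgeR adjusted p = 0.397). SNHG14, the long host RNA that runs antisense to UBE3A, had 32.9 and 48.5 CPM in ΔOGT-ISS and 79.9 and 62.1 CPM in WT, but whether reads were counted by strand is not given in the sources used here, so its counts and those of UBE3A are uncertain. MKRN3, MAGEL2 and SNURF had at most 10 counts in any library and NDN had 0 in all 4, so none of these was tested. Where no read was counted, up to 3 reads are still possible by counting error, or 0.103 CPM for ΔOGT-ISS and 0.122 CPM for WT at 24 h. ATP10A lies in the same stretch. UBE3A was among the 11 genes on opposite sides of the median, above it at 24 h (ratio 0.789, 0.762 to 0.817) and below it at 48 h (0.635, 0.606 to 0.666), with an edgeR log2 difference of -0.50 (SE 0.16, adjusted p = 0.355).

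Between VPS39, the last member of the part of the arm nearer the centromere, and TCF12 lies a stretch that holds no member. From it 10 genes were followed: B2M, the light chain of MHC class I, TP53BP1, EIF3J, DUT, COPS2, GABPB1, MYO5A, LEO1, SPG11 and CTDSPL2. All 10 were lower in ΔOGT-ISS at both times, and 10 of 10 had negative edgeR log2 differences, from -0.60 (MYO5A) to -0.21 (TP53BP1) with a median of -0.36. Of these, 0 passed the edgeR test over all genes, 2 had an unadjusted p under 0.05, and DESeq2 and limma on FPKM called 0. B2M had 1557 and 3078 CPM in ΔOGT-ISS and 2282 and 3132 CPM in WT, ratios of 0.682 and 0.983. These 10 genes were shifted in the same direction as the 58, whose median edgeR log2 difference was -0.61. The arm was picked because most of its genes read lower in these libraries, so this shared direction is a description and supports nothing. The line contrast itself chose the 58, which by itself tends to make other genes look milder. Nothing is therefore read from the gap between the sets, which was not tested.

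The levels of subunits that act in 1 complex are often coordinated, so 97 genes outside chromosome 15 that encode partners of the 58 were listed, of which 96 were tested. Their median edgeR log2 difference between the lines was 0.02, the same as the 0.02 of all genes tested, with 45 of 96 negative. Of these, 0 passed the edgeR test (81 of all 17492 genes, 0.463%, did in either direction), 5 had an unadjusted p under 0.05, and DESeq2 and limma on FPKM called 0. The largest were FANCB, of the Fanconi core complex, at 0.86 (SE 0.22, edgeR adjusted p = 0.179) and PTPN12, a phosphatase that binds PSTPIP1, at -0.79 (SE 0.18, edgeR adjusted p = 0.154). FANCD2, which is modified together with FANCI, stood at 0.08 (SE 0.15), with 138 and 151 CPM in ΔOGT-ISS and 131 and 142 CPM in WT. IDH3B, which joins IDH3A in 1 enzyme, stood at 0.17 (SE 0.16).

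Close paralogs of the 58 on other chromosomes numbered 54, of which 46 were tested, with a median of -0.03. MATK, the paralog of CSK, fell by 1.19 on the log2 scale (SE 0.18, edgeR adjusted p = 0.0433), with 43.4 and 19.5 CPM in ΔOGT-ISS and 110.7 and 39.2 CPM in WT. The test of MATK was lost with limma on FPKM (edgeR's log2 value of -1.19 became -1.08, limma adjusted p = 0.493, with a pseudocount of 1) and with no replicate block (-1.25, edgeR adjusted p = 1.00). In the 4 fits with a library left out it was lost too, with values from -1.95 (without ΔOGT-ISS, 24 h) to -0.32 (without WT, 24 h), and with -1.82 without WT at 48 h. MATK was the 1 paralog past the test, and 10 of 46 had an unadjusted p under 0.05, a count with no share of all genes beside it. BCL2L11, the paralog of BMF, stood at 0.57 (SE 0.19, edgeR adjusted p = 0.341), SMAD2 at -0.19 (SE 0.21) and MAP2K2 at 0.00 (SE 0.15). Some partners stand in both lists, such as IDH3B and FANCD2.

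Pathway lists around MAP2K1, SPRED1 and RASGRP1 and around SMAD3 and FURIN were read in the same fit. Of 18 tested genes of RAS and MAP kinase signalling outside chromosome 15, 0 passed the edgeR test, 2 had an unadjusted p under 0.05, DESeq2 and limma on FPKM called 0, and the median was -0.07. NF1, a RAS inhibitor, stood at 0.59 (SE 0.17, edgeR adjusted p = 0.246) and DUSP6, a phosphatase of ERK, at -0.48 (SE 0.26, edgeR adjusted p = 0.708). Of 14 tested genes of TGF-beta and SMAD signalling, 0 passed the edgeR test, 1 had an unadjusted p under 0.05, limma on FPKM called 0, and the median was -0.15. TGFBR1, a receptor of TGF-beta, stood at -0.71 (SE 0.15, edgeR adjusted p = 0.127) and was the 1 gene DESeq2 called (DESeq2 adjusted p = 0.0147). ID3, a target of SMAD signalling, stood at 0.54 (SE 0.30, edgeR adjusted p = 0.712).

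The IL-2 time was not used to choose the 58 genes, so its test applies to them. At 24 h against 48 h, 10 of the 58 were higher (17.2%, against 15% of all genes tested) and 12 lower (20.7%, against 10.9%) by the edgeR test with the line as a term. That split depends on the settings. With no filter on low counts 13 were higher and 3 lower (8.51% and 2.71% of all genes). That setting moves the median time difference of all genes up by 0.22. Scaling to genes off chromosome 15 gave 10 and 17 (14.6% and 13.2% of all genes). No replicate block gave 4 and 2 (10.7% and 8.03%). The higher genes were KLF13, PLCB2, BAHD1, NUSAP1, TLE3, CSK, PTPN9, PSTPIP1, IL16 and IDH2. The lower genes were ADAM10, BNIP2, ANXA2, RORA, DENND4A, SMAD3, ANP32A, PSMA4, MORF4L1, SEC11A, BLM and CHD2. The share of higher genes was near that of all genes, and the median of the 58 was -0.20 against 0.07 over all genes tested. The time also differs in depth and in library composition, and the labels give no batch, so time, depth and any preparation in separate batches cannot be told apart.

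The largest falls at 24 h were in SMAD3, which carries TGF-beta signals to the nucleus, and in ANP32A, an inhibitor of a phosphatase and of histone acetylation. SMAD3 had 0.759 and 1.26 CPM at 24 h (ΔOGT-ISS and WT) against 5.35 and 7.19 CPM at 48 h, a log2 difference of -2.65 (SE 0.47, edgeR adjusted p = 0.00625). The groups did not overlap, and both lines moved alike. ANP32A had 167 and 234 CPM at 24 h against 285 and 557 CPM at 48 h (-1.01, SE 0.18, edgeR adjusted p = 0.00615). RORA fell by 0.81 on the log2 scale (SE 0.16, edgeR adjusted p = 0.00839), with 112 and 96.0 CPM at 24 h against 187 and 177 CPM at 48 h. DENND4A, an exchange factor of RAB10, had 63.3 and 115 CPM at 24 h against 124 and 170.3 CPM at 48 h, and BNIP2, a protein that binds BCL2, had 101 and 142 CPM at 24 h against 134 and 285 CPM at 48 h. Their log2 differences were -0.77 (SE 0.17, edgeR adjusted p = 0.0146) and -0.71 (SE 0.19, edgeR adjusted p = 0.0281), and for BNIP2 the 48 h level of ΔOGT-ISS lay below the 24 h level of WT. Both calls were lost with no filter on low counts (edgeR adjusted p = 0.0629 and 0.132) and, with that of ANP32A, with no replicate block (0.167 for DENND4A, 0.195 for BNIP2 and 0.0868 for ANP32A). With a library left out, DENND4A ran from -1.22 (without WT, 24 h) to -0.36 (without ΔOGT-ISS, 24 h), and BNIP2 from -1.26 (without ΔOGT-ISS, 48 h) to -0.15 and ANP32A from -1.50 to -0.51 with the same library at one end and WT at 48 h left out at the other.

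The largest rises at 24 h were in NUSAP1, BAHD1, PLCB2, TLE3 and IL16. BAHD1, a heterochromatin factor, had 90.0 and 127 CPM at 24 h (ΔOGT-ISS and WT) against 32.7 and 43.0 CPM at 48 h, a log2 difference of 1.51 (SE 0.16, edgeR adjusted p = 0.00104). PLCB2, a phospholipase C of G protein signalling, had 107 and 165 CPM at 24 h against 34.9 and 62.8 CPM at 48 h (1.51, SE 0.16, edgeR adjusted p = 0.00105). TLE3, a transcriptional corepressor, had 185 and 302 CPM at 24 h against 74.1 and 97.2 CPM at 48 h (1.48, SE 0.17, edgeR adjusted p = 0.00115). In all 3 the groups did not overlap. IL16 rose by 1.05 (SE 0.16, edgeR adjusted p = 0.00316) and NUSAP1 by 2.71 (SE 0.57, edgeR adjusted p = 0.0119), with 4 counts of NUSAP1 in ΔOGT-ISS and 18 in WT at 48 h. The calls of IL16 and NUSAP1 were lost with no replicate block (edgeR adjusted p = 0.157 and 0.0638). IL16 ran from 0.47 (without WT, 24 h) to 1.66 (without WT, 48 h) with a library left out and was called in none of those 4 fits, and NUSAP1 ran from 1.75 (without ΔOGT-ISS, 48 h) to 4.04 (without WT, 48 h). Each fit with a library left out has a group without a replicate, so the number of calls for time in it says little about the 58.

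**Figure D5:**
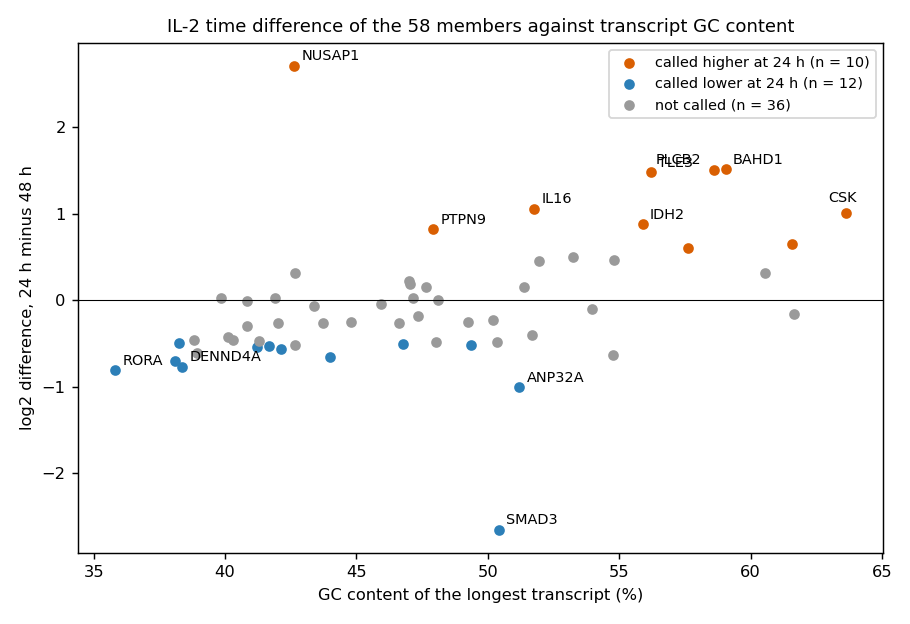
Log2 difference between 24 h and 48 h from the edgeR fit (y axis) against the GC content of each gene's longest transcript in percent (x axis) for the 58 genes. Orange genes (10) were called higher at 24 h and blue genes (12) lower. Genes with GC-rich transcripts such as CSK, BAHD1 and PLCB2 lie high and those with AT-rich transcripts such as RORA and DENND4A lie low.

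GC content moved with this result, as the plot against GC shows. The time difference rose with the GC content of the longest transcript over the 58 genes (Spearman 0.55) and over all tested genes (0.47), which is a description across genes that all rest on the same 4 libraries. With an offset for GC content in each library, an alternative chosen after seeing the data, 7 genes were called higher and 3 lower, and 8 calls were shared with the fit without it. Kept were SMAD3 (-2.70) and ANP32A (-1.10) among the lower genes and NUSAP1, BAHD1 (0.79), PLCB2 (0.82), TLE3 (0.99), PTPN9 (0.93) and IL16 (0.92) among the higher ones. The other 14 calls were lost, 10 lower and 4 higher, among them RORA (-0.36, edgeR adjusted p = 0.290), DENND4A (-0.35, 0.308), BNIP2 (-0.29, 0.429) and KLF13 (0.01, 0.990). The sign turned for 2 of the 14, CSK (-0.10, 0.821) and PSTPIP1 (-0.29, 0.432). Besides, FURIN (-1.11, edgeR adjusted p = 5.94e-04) and RASGRP1 (0.67, 0.0278) gained a call. How much of the time difference GC content accounts for was not tested.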

How the data were processed

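RNA-seq libraries were made from total RNA of NK-92 cells with the CORALL RNA-seq V2 kit after RiboCop depletion of ribosomal RNA, according to the labels' protocols. The authors deposited raw counts, which are whole reads per Ensembl gene with no normalization. The submitters' processing notes name build hg38, featureCounts 2.0.1, SAMtools 1.15.1 and HISAT2 2.2.0. Which annotation was used, whether strand was used, and how reads that match several places were counted is not given in the sources used here. The authors' deposited FPKM table, in which counts are divided by transcript length and depth, gave symbols and levels per length. It lacks 1188 of 61860 identifiers and lists 3 more than once. GENCODE 29 (GRCh38) placed 58308 identifiers.

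Counts of all genes were tested with edgeR 4.0.16 (R 4.3.3, quasi-likelihood, two-sided, TMM factors) in a model of line plus IL-2 time. filterByExpr with a minimum count of 10 left 17492 genes, and the model left 1 residual degree of freedom. P-values were adjusted by Benjamini-Hochberg over all genes, with a threshold of 0.05. The share of all genes with an unadjusted p under 0.05 is not given here, so counts of such genes have no background. The term for time pairs the libraries, which is a replicate block. A standard error (SE) is the log2 difference over the square root of F. No label says that libraries came from separate cultures, so the p-values reflect spread among these 4 libraries, possibly technical. Ratios at 1 time carry exact conditional binomial 95% intervals, which cover counting error only, as does the limit of 3 counts for a count of 0. Only the line term of the main edgeR fit was tried on simulated data, not the test for time, the intervals or the alternatives.

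The genes and lists were chosen with earlier results of these data known. All 58 could be named. Values in every library went to at most the 8 genes farthest from the median on each side, the 5 largest calls for time in each direction, the 4 with the largest difference between times, and a few chosen after their values were seen. From the other lists the rule took at most 4 genes past the test, or the 2 largest, and others named from them were chosen after their values were seen. Of the partner list, KIF23 and WDR61 (listed as SKIC8) lie on chromosome 15 and were dropped. IPW of the imprinted list was not matched. Some marker genes are not reported here. Alternatives were DESeq2 1.42.0, limma 3.58.1 on log2 FPKM with pseudocounts of 0.1 and 1, other scalings, no filter, 1 library left out, no block and offsets for GC content.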

Additional observations from a re-analysis of the deposited data

Results flagged for a closer look

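The line difference took opposite signs at the 2 IL-2 times in 3 of the 58 genes. Each value below is the log2 ratio of ΔOGT-ISS to WT at 24 h minus that at 48 h. It was 1.70 for SPRED1, which was higher in ΔOGT-ISS at 24 h and lower at 48 h. It was -2.43 for IGF1R, which was lower in ΔOGT-ISS at 24 h and higher at 48 h. It was -0.35 for VPS39, with the same order of signs as IGF1R and ratios of 0.796 and 1.01. With 1 library per line and time these differences were not tested. The 48 h intervals of IGF1R (0.689 to 1.86) and VPS39 (0.921 to 1.11) both hold 1, so only SPRED1 lay on opposite sides of 1 beyond counting error at both times.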

How the results depend on the processing

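The count of the 58 genes called lower in ΔOGT-ISS was 4 with edgeR, where 81 of all genes were called in either direction. It was 9 with DESeq2 size factors (154 of all genes), 10 with scaling to genes off chromosome 15 (170) and 20 with no filter on low counts (546). The DESeq2 Wald test gave 16 (303) and offsets for GC content 15 (523). No replicate block gave 0 and limma on FPKM 0 at either pseudocount, with 0 of all genes called. The fit over all genes thus gained and lost calls along with the 58. The counts of partners and paralogs below come from these same fits. The count for IL-2 time, 22, was 6 with no replicate block, where 10.7% of all genes were called higher and 8.03% lower. It was 10 with GC offsets (9.75% and 8.84% of all genes). With limma on FPKM it was 0 at a pseudocount of 0.1 (0% and 0%) and 10 at a pseudocount of 1 (12.8% and 7.17%). With 1 library left out the fit lost its other term, so line and time are mixed in it, and it gave 0 to 0 line calls and 0 to 7 time calls. Partners, with 0 calls, had 2 with no filter and 2 with GC offsets (FANCB and PTPN12 in each). Paralogs, with 1, had 2 with DESeq2 size factors, 2 with scaling off chromosome 15, 2 with DESeq2 and 4 with no filter. They had 4 with GC offsets, 0 with no replicate block and 0 with limma at either pseudocount. The log2 difference of ID3, 0.54, ran from -0.20 to 1.52 with a library left out, and 1 other such fit gave -0.11. The median of the 58, -0.60, was -0.59 at 24 h alone, -0.58 at 48 h alone, -0.61 with DESeq2 size factors, -0.62 scaled off chromosome 15, -0.54 on FPKM and -0.57 over 52 genes with at least 10 CPM in WT. The SD, 0.463, was 0.518, 0.549, 0.421 (FPKM) and 0.331 (10 CPM or more) under those of these settings that moved it. The 23 genes departing at both times became 45 at 24 h alone and 42 at 48 h alone, since 1 time asks less. Causes of the other shifts were not tested. Departures on FPKM could not be given, since FPKM holds no counts. The depth at 48 h limits genes such as NUSAP1, IGF1R and ATP10A.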
